A study of Mus musculus with 4 samples.

Results

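Myc-CaP cells carrying shRNAs (short hairpin RNAs) that target FAK, the focal adhesion kinase encoded by Ptk2, were compared with Myc-CaP cells carrying a negative control hairpin, both after 24 h in vehicle. This comparison uses 2 of the 4 RNA-seq libraries of the series, and describes the 12060 genes, of 52636 in the deposited count table, with a CPM (read count scaled to library size) of at least 1 in either vehicle library. Myc-CaP is an established prostate cancer line from a Hi-Myc transgenic mouse of the FVB strain, and the hairpins were stably transfected. The control line is called shNC here and the knockdown line shFAK. Matching libraries of both lines after 24 h in 10 µM norepinephrine complete the series and are cited only beside vehicle values. The labels do not say how many hairpins were used, or whether each line was a clone or a pool.

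FAK is a cytoplasmic tyrosine kinase that is recruited to integrin adhesions. It binds Src-family kinases and adaptors such as p130Cas and Grb2, and passes adhesion signals to Rac, phosphoinositide 3-kinase and the ERK pathway. It also acts as a scaffold, and a nuclear pool has been tied to transcription of chemokine genes in other tumour cells. In prostate cancer it is studied for its part in cell migration and survival.

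Each line gave 1 library under vehicle, with 29948640 counts for shNC and 26016936 for shFAK. No test of variation between cultures is possible, so the values below are ratios of these 2 libraries and no p-value is given. Every log2 ratio is that of shFAK over shNC in CPM scaled by effective library size, with a prior count of 2, and each interval is an exact 99% Clopper-Pearson interval. The intervals cover counting error only, and PCR reads that carry no molecular identifier are not independent molecules. The 2-fold rule asked for a log2 ratio of at least 1 in either direction with an interval that left out 0, and the 1.5-fold rule likewise. In bulk RNA, fewer cells with a transcript and less of that transcript per cell cannot be told apart.

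The line was checked against its markers. The epithelial markers Epcam (6 counts in shNC and 0 in shFAK), Cdh1 (3 and 3) and Krt18 (3 and 2) were at or near 0 in both libraries, so these defining epithelial transcripts were absent or nearly so. Of the 8 identity markers, 4 passed the 1 CPM filter. None of the 8 endothelial markers passed. Of 10 fibroblast markers, 2 passed, Pdgfra (276 and 326 counts) and Postn (24 and 31), with a summed list level of 10.5 and 14.4 CPM. Of 14 leukocyte markers, 3 passed, with summed levels of 48.9 and 30.4 CPM, and Tigit (961 and 389 counts) held most of that.

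The targeted transcript was lower in the shFAK library. Ptk2 lies on mm10 chromosome 15 from 73205105 to 73423191 (ENSMUSG00000022607). It had 3547 counts in shNC and 1294 in shFAK, which put shFAK at 40.8% of shNC (interval 37.4% to 44.3%). That is a log2 ratio of -1.29 (-1.42 to -1.18). Per kilobase of gene length, Ptk2 stood at 24.0 CPM in shNC and 9.77 CPM in shFAK. The transcript was thus reduced and still well above the detection limit. Its paralog Ptk2b, which encodes the related kinase PYK2, had 170 and 236 counts, a log2 ratio of 0.63 (0.25 to 1.02). Its level per kilobase was 0.776 CPM in shNC and 1.20 CPM in shFAK, below that of Ptk2 in either library.

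Among 22 measured genes of the FAK signalling complex, Ptk2b was the 1 gene past the 1.5-fold rule upward, and Ptk2 and Grb7 were the 2 past it downward. Over all kept genes, 3.75% passed that rule upward and 1.61% downward. Grb7, an SH2 adaptor that binds FAK, had 44 and 19 counts, a log2 ratio of -0.98 (-2.18 to -0.02). The main partners of FAK were short of the rule. Src had 3432 and 2791 counts (log2 -0.14), Bcar1, which encodes p130Cas, had 8732 and 6785 (log2 -0.21), and Grb2 had 3665 and 3072 (log2 -0.10). These partners, like some members named further on, were chosen after their values were seen. The list had a median log2 ratio of 0.05, beside 0.00 over all kept genes, and of -0.04 after removal of the gene length and GC trend described below.

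The ratios of most genes were small. The middle of the distribution ran from -0.16 to 0.19 (quartiles), 66.7% of the kept genes lay within 0.25 of 0 and 98.0% within 1. The 2-fold rule was passed by 171 genes higher in shFAK (1.42%) and 54 lower (0.448%). Of the higher genes, 135 were protein-coding and 55 averaged at least 5 CPM. Of the lower genes, 28 were protein-coding, 19 were processed pseudogenes and 13 averaged at least 5 CPM. Most genes past the rule were weakly expressed, where the counts are few. With the genes in 5 equal bins of mean CPM, the median half-width of the interval was 0.72 on the log2 scale in the lowest bin and 0.076 in the highest. At the edge of the filter, 117 kept genes had between 1 and 1.1 CPM in their higher library, and 178 genes left out had between 0.9 and 1.

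**Figure D1:**
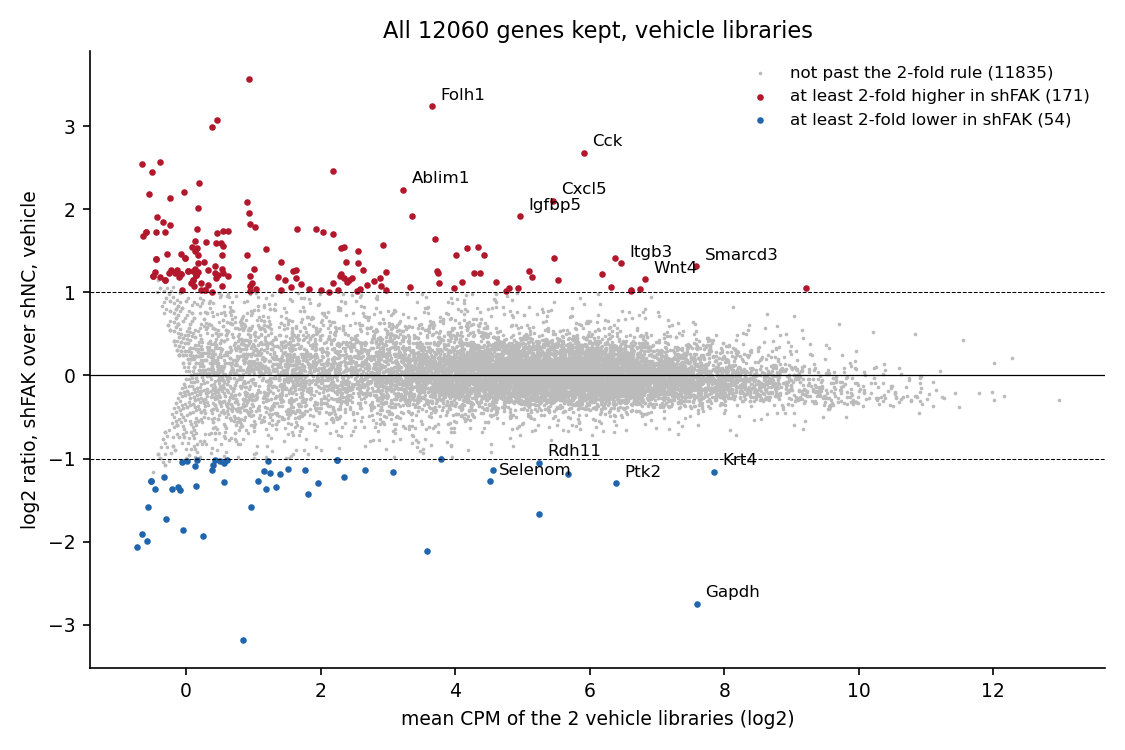
Log2 ratio of shFAK over shNC under vehicle (vertical axis) against the mean CPM of both libraries on a log2 scale (horizontal axis), with 1 point per kept gene. Dashed lines mark log2 ratios of 1 and -1. Red points (171) and blue points (54) passed the 2-fold rule, and they gather at low CPM.

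The strongest differences upward included secreted and surface proteins. Folh1 on chromosome 7 (86718977 to 86775943) encodes a surface carboxypeptidase known in human prostate as PSMA. It had 70 counts in shNC and 607 in shFAK, log2 3.24 (2.81 to 3.77). Cck (chromosome 9, 121489824 to 121495694), which encodes the peptide hormone cholecystokinin, had 482 and 2781 counts, log2 2.68 (2.50 to 2.87). Both genes were expressed in either line, and Cck reached 80.3 CPM per kilobase in shFAK against 7.13 CPM per kilobase for Folh1. Igfbp5, which binds insulin-like growth factors, had 388 and 1316 counts, log2 1.92 (1.71 to 2.14). Steap4, a metalloreductase, had 185 and 523 counts, log2 1.65.

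Several other genes of this group act on membranes, the cytoskeleton or chromatin. Ablim1, an actin-binding LIM protein, had 96 and 412 counts, log2 2.24 (1.84 to 2.70). Abca1, which exports cholesterol from cells, had 275 and 717 counts, log2 1.53 (1.28 to 1.81). Plxnd1, a semaphorin receptor, had 90 and 231 counts, 2.82-fold higher. Smarcd3, a subunit of the BAF chromatin remodelling complex, had the most counts of the coding genes named upward, 3260 and 7277, log2 1.32 (1.24 to 1.40), although 2 annotated genes overlap it on the other strand and the kit does not mark strand. Fhl1, a LIM-only protein, had 256 and 631 counts, log2 1.45. Tph1, the enzyme that starts serotonin synthesis outside neurons, had 97 and 224 counts, log2 1.35. The remaining coding genes of the 20 named upward were Cxcl5, Slpi, Fbln2, Spink8, Il33, Kank4, Sned1, Itgb3, Hmgn2 and Rpl30, with log2 ratios from 1.35 to 2.10, and most are described with their groups.

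Downward, 10 protein-coding genes averaging at least 5 CPM passed the 2-fold rule. Krt4 (chromosome 15, 101918536 to 101924735), a keratin of stratified epithelium, had 9432 counts in shNC and 3789 in shFAK, log2 -1.16 (-1.23 to -1.09). Selenom, a selenoprotein of the endoplasmic reticulum, had 963 and 356 counts, log2 -1.27 (-1.51 to -1.05). Apobec1, the cytidine deaminase that edits apolipoprotein B mRNA, had 211 and 80 counts, log2 -1.22. These 3 ratios were about as large as that of Ptk2 itself. Rdh11, a retinol dehydrogenase, had 1518 and 656 counts, log2 -1.05. Arg1, which splits arginine into ornithine and urea, had 550 and 245 counts, with a log2 interval of -1.30 to -0.72. Tigit, an immune checkpoint receptor of lymphocytes, had 961 and 389 counts, log2 -1.14, while the leukocyte markers Cd14 and Cd68 had 447 and 372 (log2 -0.11) and 28 and 36 (log2 0.49), and 5 of the 14 leukocyte markers were at 0 in both libraries. Mgp, the matrix Gla protein, had 348 and 138 counts, log2 -1.16. Gapdh and mt-Nd4l complete the 10 and are taken up with genes that have near-identical copies.

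The norepinephrine pair shares no library with the vehicle pair, and its values are set beside the vehicle values here. Of the 171 genes higher under vehicle, 158 had a positive ratio under norepinephrine and 92 passed the 2-fold rule there. Of the 54 lower genes, 40 had a negative ratio and 19 passed. Over all kept genes the 2-fold rule under norepinephrine was passed by 2.04% upward and 0.522% downward, and the median log2 ratio there was 0.02. Among named genes Folh1 had a log2 ratio of 2.62 there, Smarcd3 1.17, Tph1 0.96, Rdh11 -0.97 and Arg1 -0.79. Because the same 2 lines were used in both pairs, agreement between them bears on these lines and not on independently made ones. Both pairs also showed the gene length trend described below, and its part in this agreement was not tested.

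**Figure D2:**
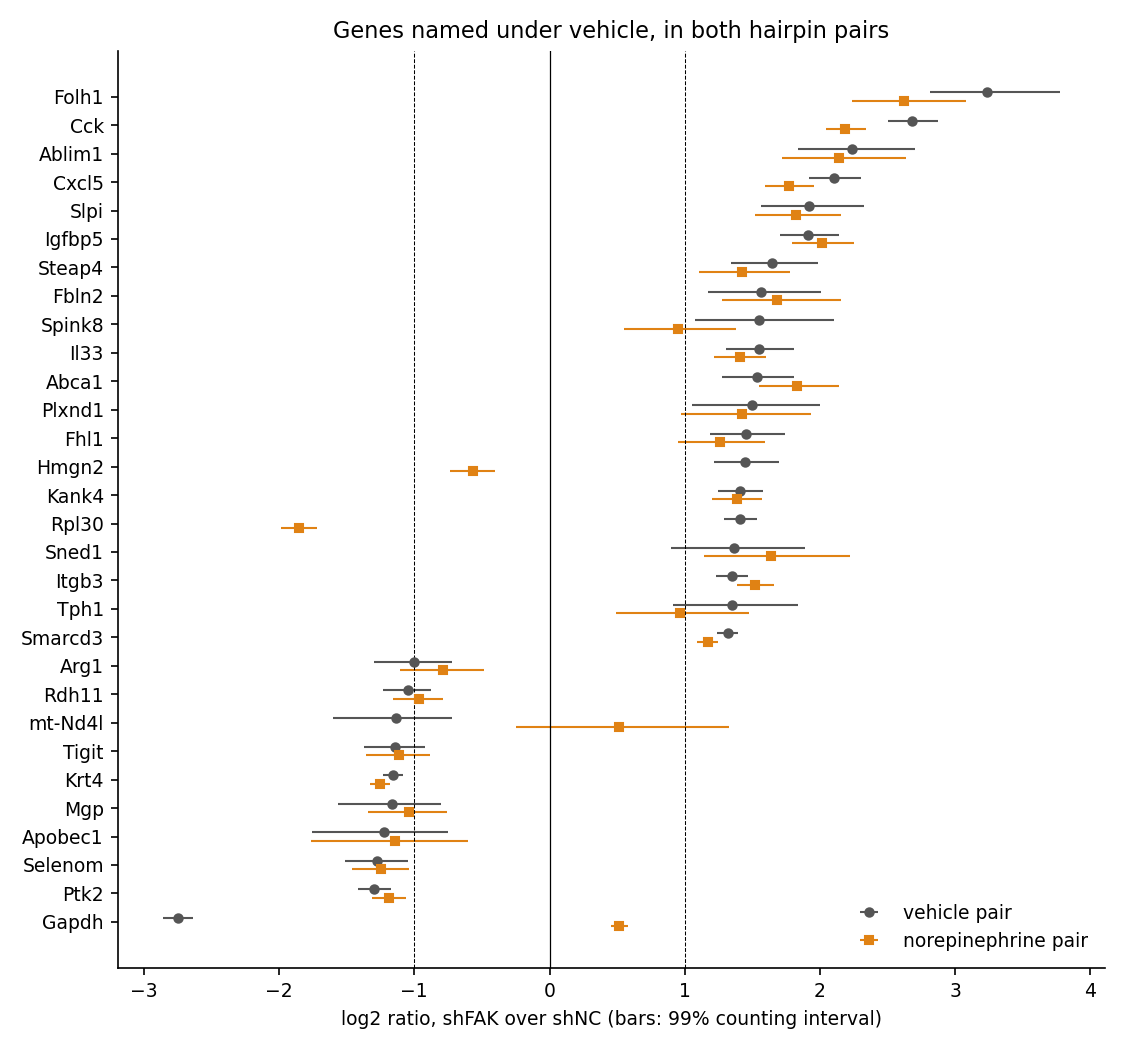
Log2 ratio of shFAK over shNC (horizontal axis) for the 30 protein-coding genes named by size, with grey circles for the vehicle pair, orange squares for the norepinephrine pair and bars for 99% counting intervals. For 26 genes both ratios lie on the same side of 0. Gapdh, Rpl30, Hmgn2 and mt-Nd4l lie on opposite sides.

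Gene length moved with the ratio. The Spearman correlation of the vehicle ratio with the deposited gene length was 0.33 across the 12060 genes, which are not independent replicates, and it was 0.48 for the norepinephrine pair. In 5 equal bins of length, the shortest genes (57 to 1985 bases) had a median log2 ratio of -0.15 and the longest (7043 to 123179 bases) had 0.14. In the shortest bin 2.82% of genes passed the 1.5-fold rule upward and 4.81% downward, and in the longest 4.48% and 0.373%. The 598 processed pseudogenes, which are short, had a median of -0.25, and -0.07 after removal of the length and GC trend. After its removal, 178 genes were past the 2-fold rule upward and 34 downward. Ptk2 was at 39.9% of shNC on that scale. Tigit (log2 -0.98), Arg1 (-0.93), mt-Nd4l (-0.94) and Col12a1 (0.88) no longer passed the 2-fold rule, and Arg1 also missed it with library totals (-0.96). The genes named here that no longer passed the 1.5-fold rule were Ptk2b (0.57), Npm3 (-0.57), Itgav (0.48), Lpp (0.47), Fgfr2 (0.52), Erbb3 (0.56), Spp1 (-0.50), Snai3 (-0.57), Jag1 (0.58), Mvk (-0.53), Inhba (0.54), Hist1h2bc (-0.50) and Malat1 (0.54), and Grb7 (-0.95) missed it because its interval took in 0. The part of RNA integrity or fragment size in this trend was not tested. Median ratios of the nuclear chromosomes ran from -0.05 on chromosome 9 to 0.06 on chromosome X, and the mitochondrial genes had a median of 0.29.

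**Figure D3:**
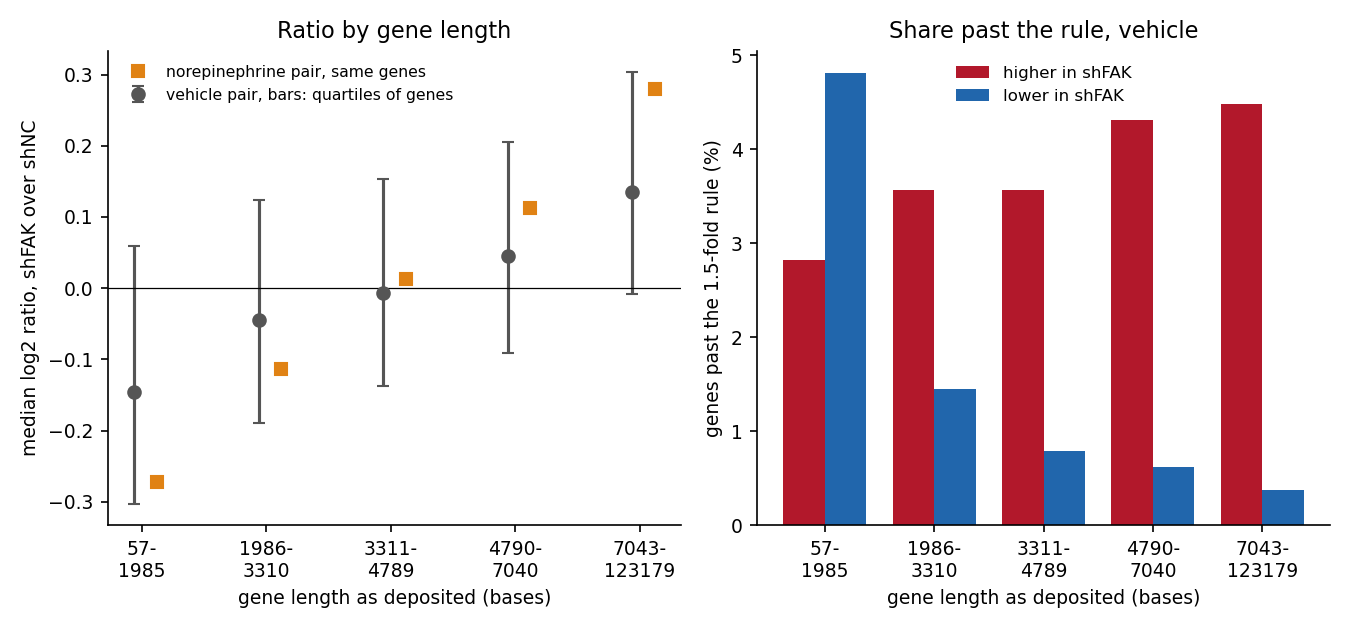
Left, median log2 ratio of shFAK over shNC in 5 bins of gene length, with bars for the quartiles of the genes under vehicle (grey circles) and squares for the norepinephrine pair. Right, percent of genes in each bin past the 1.5-fold rule under vehicle, higher in red and lower in blue. The medians climb from -0.15 to 0.14 under vehicle, and the share of lower genes drops from 4.81% to 0.373%.

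Cytokine, chemokine and acute-phase genes had the highest median of the lists with more than 4 measured members. This list, like all 44, was chosen with earlier results of these data known. Of 18 measured genes, 13 were past the 1.5-fold rule upward, beside 3.75% of all kept genes, none was past it downward, and the median was 0.67, unchanged at 0.67 after removal of the length and GC trend. Cxcl5, a neutrophil-attracting chemokine, had 488 counts in shNC and 1884 in shFAK, log2 2.10 (1.92 to 2.30). Il33, an alarmin cytokine, had 304 and 799 counts, log2 1.55 (1.30 to 1.81). The acute-phase gene Saa3 had 7 and 95 counts, log2 3.57 (2.55 to 5.75), the largest ratio among the kept genes, from few reads. Lcn2, an iron-sequestering acute-phase protein, had 9 and 44 counts, log2 2.21 (1.12 to 4.08). The complement component C3 had 20 and 82 counts, log2 2.08. The chemokines Cxcl1 (192 and 361 counts, log2 1.06) and Cxcl2 (15 and 39, log2 1.42) and the macrophage growth factor Csf1 (1591 and 2225, log2 0.64) were also past the 1.5-fold rule.

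Not every gene of this kind was higher. The NF-kB subunit genes Nfkb2 (1965 and 1429 counts, log2 -0.30) and Relb (304 and 210, log2 -0.37) were the 2 negative members. The feedback inhibitors Nfkbia (log2 0.19) and Tnfaip3 (log2 0.13) were short of the rule. Il6, Tnf and Il1b had at most 5 counts in either library. Under norepinephrine the list median was 0.75, with 11 genes past the 1.5-fold rule upward and 1 downward, beside 7.65% and 3.09% of all kept genes there.

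Promoter windows of these genes were read for an NF-kB motif (GGGA, any base, TTTCC) on both strands, in RefSeq windows of 300 bases around each start in the GRCm38.p6 build. Of the 18 genes, 14 matched the table and 5 held the motif (35.7%), beside 0.483% of the 8689 kept genes that matched and 0.466% of all 27025 genes in the table. The 5 were Cxcl1, Cxcl2 and Csf1, and also Nfkbia and Nfkb2, which were not past the rule. The list share describes the genes listed and not their ratios. Among the 2-fold higher genes the motif was in 2 of 108 matched genes (1.85%), and among the 2-fold lower genes in 0 of 22. The windows of Cxcl1 and Cxcl2 are shown because both genes were higher and both hold the motif upstream of the start, at positions -71 and -97. Capitals mark the motif. A match is a description of the letters and does not show that a factor was bound.
Cxcl1, chr5:90890995-90891294, plus strand: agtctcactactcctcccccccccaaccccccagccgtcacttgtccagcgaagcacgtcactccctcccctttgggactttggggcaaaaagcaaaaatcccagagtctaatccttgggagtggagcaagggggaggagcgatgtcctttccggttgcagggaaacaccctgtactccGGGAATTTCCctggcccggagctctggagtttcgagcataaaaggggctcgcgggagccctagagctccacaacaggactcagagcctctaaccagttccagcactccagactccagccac
Cxcl2, chr5:90903649-90903948, plus strand: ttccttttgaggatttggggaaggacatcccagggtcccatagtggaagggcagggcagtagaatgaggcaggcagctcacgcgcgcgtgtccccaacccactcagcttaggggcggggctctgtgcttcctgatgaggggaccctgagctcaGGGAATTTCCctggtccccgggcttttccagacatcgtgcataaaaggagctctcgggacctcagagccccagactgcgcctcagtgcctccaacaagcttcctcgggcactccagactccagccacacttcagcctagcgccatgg

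Of 21 measured interferon-response genes, 5 were past the 1.5-fold rule upward and none downward, beside 3.75% and 1.61% of all kept genes. The median was 0.25, and 0.35 after removal of the length and GC trend. Gbp7, a guanylate-binding protein, had 19 and 55 counts, log2 1.59 (0.70 to 2.79). Gbp2 had 13 and 29 counts, log2 1.19 (0.05 to 2.72), and Igtp, an interferon-induced GTPase, had 33 and 59, log2 0.95 (0.17 to 1.86). Parp14, an ADP-ribosyltransferase, had 133 and 271 counts, log2 1.17 (0.79 to 1.59). Stat2, a subunit of the interferon transcription factor, had 311 and 535 counts, log2 0.94, while its partner Irf9 (286 and 255, log2 -0.01) was near 0. The higher members were thus mostly genes with few counts, and the abundant members Ifit2 (1276 and 1301, log2 0.19) and Bst2 (2167 and 1667, log2 -0.22) were not past the rule.

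The interferon-stimulated response element (GAAA, any 2 bases, GAAA) was found on either strand in 11 of the 17 interferon-response genes with a promoter window (64.7%), beside 3.38% of the matched kept genes and 3.99% of all genes in the table. It was present both in genes that were higher and in genes that were not, and the list share describes the genes listed. Among the 2-fold higher genes it was in 6 of 108 matched genes (5.56%), and among the 2-fold lower genes in 0 of 22. The windows of Gbp7, Gbp2 and Igtp, higher in shFAK, are shown with that of Isg15, a ubiquitin-like interferon response gene with 85 and 70 counts (log2 -0.12) and 3 overlapping matches. Capitals mark the element, which starts with TTTC where it lies on the other strand.
Gbp7, chr3:142530086-142530385, plus strand: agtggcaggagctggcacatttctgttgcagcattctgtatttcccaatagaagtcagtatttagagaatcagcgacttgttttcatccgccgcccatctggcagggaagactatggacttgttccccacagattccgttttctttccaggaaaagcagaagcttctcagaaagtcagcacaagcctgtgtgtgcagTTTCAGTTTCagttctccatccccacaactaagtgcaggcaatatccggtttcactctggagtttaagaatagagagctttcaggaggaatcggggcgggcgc
Gbp2, chr3:142620413-142620712, plus strand: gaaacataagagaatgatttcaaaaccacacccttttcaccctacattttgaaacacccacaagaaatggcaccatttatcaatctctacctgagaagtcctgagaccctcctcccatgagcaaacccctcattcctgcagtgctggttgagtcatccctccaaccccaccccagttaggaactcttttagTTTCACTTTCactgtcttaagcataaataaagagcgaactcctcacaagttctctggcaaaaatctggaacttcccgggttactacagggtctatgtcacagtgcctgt
Igtp, chr11:58199306-58199605, plus strand: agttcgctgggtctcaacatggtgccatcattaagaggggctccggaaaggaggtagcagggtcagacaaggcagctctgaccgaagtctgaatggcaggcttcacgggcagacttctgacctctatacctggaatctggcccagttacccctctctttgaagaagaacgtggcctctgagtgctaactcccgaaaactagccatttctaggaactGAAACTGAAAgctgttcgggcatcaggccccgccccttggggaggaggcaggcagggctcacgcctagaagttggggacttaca
Isg15, chr4:156200769-156201068, minus strand: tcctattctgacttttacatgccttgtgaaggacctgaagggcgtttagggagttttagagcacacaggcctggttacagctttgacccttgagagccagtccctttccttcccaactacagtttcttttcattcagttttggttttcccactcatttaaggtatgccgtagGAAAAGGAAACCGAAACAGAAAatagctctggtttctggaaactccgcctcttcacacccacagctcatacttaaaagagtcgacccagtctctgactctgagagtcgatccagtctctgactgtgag

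Of 16 antigen presentation genes, 2 were past the 1.5-fold rule upward and none downward, beside 3.75% and 1.61% of all kept genes. The median was 0.23. Psmb8, an immunoproteasome subunit, had 7 counts in shNC and 67 in shFAK, log2 3.08 (2.02 to 5.26). Tap2, a subunit of the peptide transporter, had 85 and 154 counts, log2 1.00 (0.51 to 1.54), and 2 annotated genes overlap it on the other strand. The class I genes B2m (5022 and 5665 counts, log2 0.33), H2-D1 (log2 0.31) and H2-K1 (log2 0.28) had small positive ratios, and that of H2-K1 was -0.16 under norepinephrine.

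Integrins and matrix proteins form the adhesions at which FAK acts, and their lists, like the others, were chosen with earlier results of these data known. Of 14 measured integrin subunits, 4 were past the 1.5-fold rule upward and none downward, beside 3.75% and 1.61% of all kept genes. The median was 0.23. Itgb3 (chromosome 11, 104608000 to 104670476), the beta subunit of the vitronectin receptor, had 1472 counts in shNC and 3358 in shFAK, log2 1.35 (1.23 to 1.47). Its alpha partner Itgav had 3417 and 4643 counts, log2 0.60 (0.52 to 0.69). Both chains of that receptor were higher, whereas the fibronectin receptor chains Itga5 (log2 0.11) and Itgb1 (log2 0.10) were near 0. Itga3, a laminin receptor subunit, had 64872 and 42485 counts, log2 -0.45, and was the lowest of the 14. Per kilobase it was at 384 CPM in shNC and 280 CPM in shFAK, above Itgb3 at 8.42 and 21.4. Itga7 (136 and 207 counts, log2 0.76) and Itgb7 (78 and 115, log2 0.70) were the other two past the rule.

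Collagen and laminin genes had a median of 0.50, which was 0.39 after removal of the length and GC trend. Of 15 measured, 6 were past the 1.5-fold rule upward and none downward, beside 3.75% and 1.61% of all kept genes. All 6 were collagens. Col12a1, which associates with collagen fibrils, had 1906 and 3492 counts, log2 1.03 (0.93 to 1.14). Col5a1, a fibrillar collagen, had 6008 and 9491 counts, log2 0.82. The basement membrane chains Col4a1 (1778 and 2519, log2 0.66) and Col4a2 (1496 and 2436, log2 0.86), which lie head to head in the genome, were both higher. Genes overlap Col4a1, Col4a2 and Col5a1 on the other strand, so their reads may include others. Of the 10 fibroblast markers, Col1a2 and Col3a1 had at most 1 count in either library, and the 2 measured ones were Pdgfra (log2 0.40, 0.09 to 0.71) and Postn (log2 0.49, -0.53 to 1.61). The summed list was at 10.5 CPM in shNC and 14.4 CPM in shFAK, and its part in the collagen ratios was not tested.

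Among 19 measured matrix glycoproteins, 6 were past the 1.5-fold rule upward and 2 downward, beside 3.75% and 1.61% of all kept genes. Fbln2, a fibulin of elastic fibres and basement membranes, had 113 and 303 counts, log2 1.56 (1.17 to 2.01). Vcan, a large matrix proteoglycan, had 733 and 1162 counts, log2 0.82, and Thbs3, a thrombospondin, had 491 and 832, log2 0.92. Emilin1 had 27 and 46 counts, log2 0.88, with an interval whose lower end was 0.00. Spp1, which encodes osteopontin, was lower with 5942 and 3505 counts, log2 -0.60 (-0.68 to -0.52), as was Mgp. Fn1, fibronectin, had 75384 and 90765 counts, log2 0.43, short of the rule. Of 18 matrix proteases and inhibitors, 5 were past the rule upward and 1 downward. Slpi, a secreted inhibitor of serine proteases, had 126 and 432 counts, log2 1.92 (1.56 to 2.33). Loxl2, which crosslinks collagen, had 2424 and 4191 counts, log2 0.95 (0.85 to 1.04), and its ratio under norepinephrine was 0.27. Plau, the urokinase gene, had 51 and 81 counts, log2 0.80, Adam8 had 116 and 173, log2 0.73, and Mmp10 had 59 and 26, log2 -0.97.

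Inside the cell, 3 of 21 adhesion plaque genes were past the 1.5-fold rule upward and none downward, beside 3.75% and 1.61% of all kept genes. The median was 0.22 (0.12 with the trend taken off). Kank4, of a family that links talin to the cell cortex, had 717 and 1711 counts, log2 1.41 (1.25 to 1.58). Lpp, a LIM protein of adhesion sites, had 4310 and 6029 counts, log2 0.64 (0.57 to 0.72), and Lims2 had 19 and 42, log2 1.21. The core plaque genes were short of the rule. Tln1 (talin) had 8946 and 9484 counts, log2 0.24, Vcl (vinculin) had 5005 and 5140, log2 0.20, and Pxn (paxillin), a direct FAK partner, had 3412 and 2464, log2 -0.31.

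**Figure D4:**
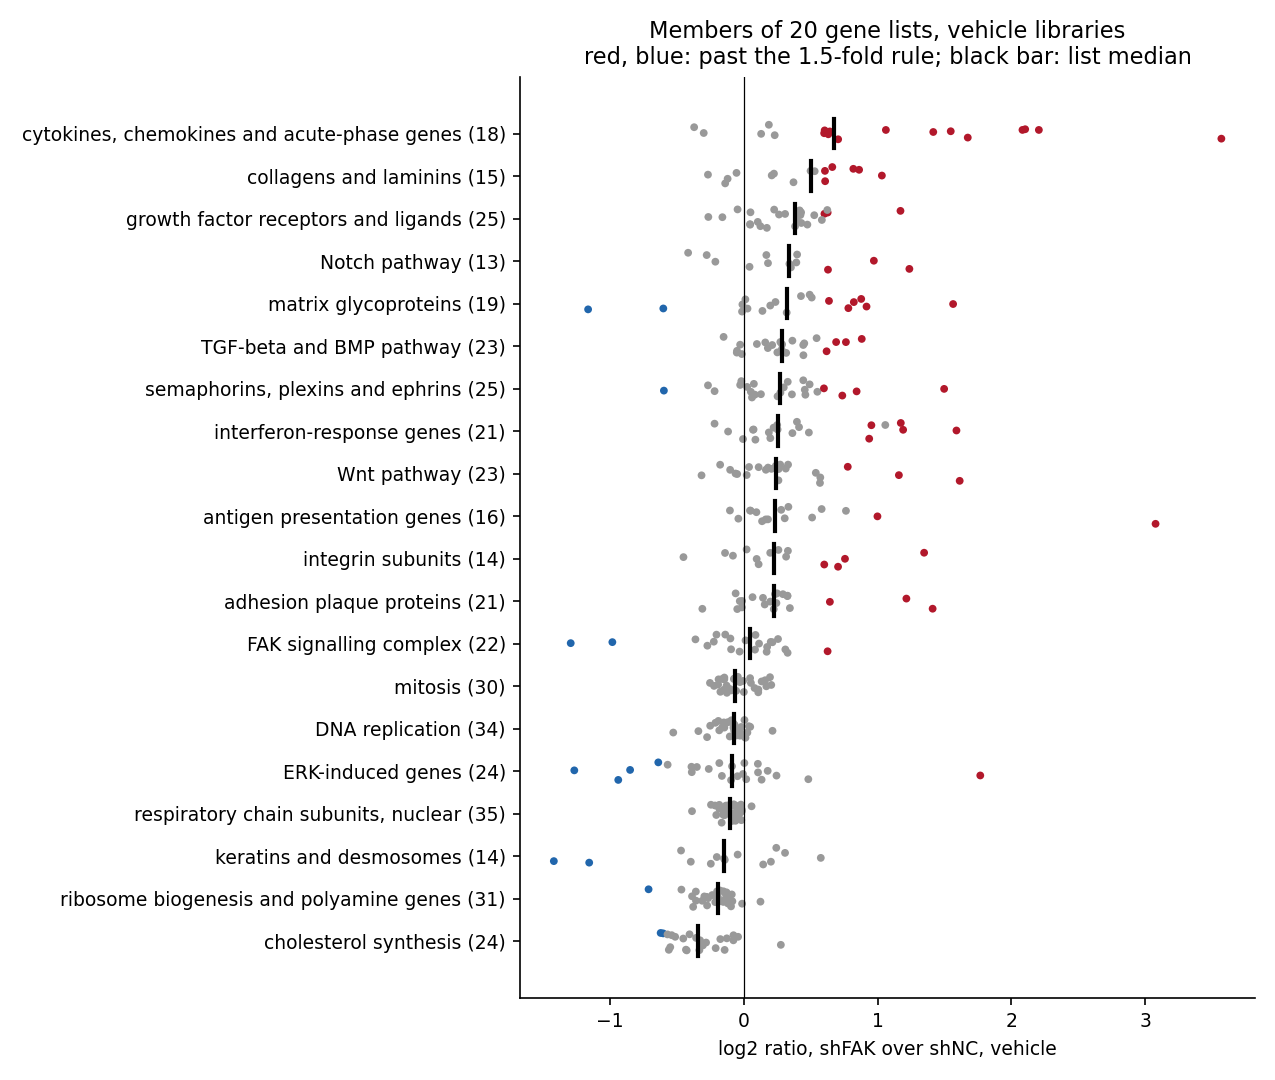
Log2 ratio of shFAK over shNC under vehicle (horizontal axis) for the measured members of 20 gene lists, with 1 point per gene, the number of members in brackets and a black bar at the list median. Red and blue points passed the 1.5-fold rule upward and downward. The cytokine list has its median at 0.67 and the cholesterol synthesis list at -0.35.

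Epithelial and mesenchymal genes did not split along those lines. Of 14 keratin and desmosome genes, 2 were past the 1.5-fold rule downward and none upward, beside 1.61% and 3.75% of all kept genes. The median was -0.15. The 2 lower genes were Krt4 and Krt8, a simple-epithelium keratin with 153 and 50 counts, log2 -1.42 (-2.10 to -0.85). The basal keratin Krt14 had 81 and 109 counts, log2 0.57. Of 19 epithelial junction genes, Ehf, an epithelial transcription factor with 8 and 38 counts (log2 2.14, 1.00 to 4.16), was past the rule upward, and Ovol1 (81 and 37, log2 -0.94) downward. Of 11 mesenchymal transition genes, Acta2 (452 and 648 counts, log2 0.68) was past the rule upward, and Twist2 (381 and 219, log2 -0.64) and Snai3 (105 and 57, log2 -0.70) downward. Vim, the mesenchymal intermediate filament gene, had 46449 and 42031 counts, log2 0.01.

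Signalling pathways with ligands and receptors are set beside the 3.75% of all kept genes past the 1.5-fold rule upward and 1.61% downward. Of 13 Notch pathway genes 3 were past it upward and none downward, and the median was 0.34. The receptor Notch1 had 237 and 503 counts, log2 1.24 (0.95 to 1.55), Notch3 had 28 and 51, log2 0.97, and the ligand Jag1 had 504 and 699, log2 0.63. Genes overlap Notch1 and Notch3 on the other strand. Of 23 Wnt pathway genes 3 were past the rule upward and none downward, and the median was 0.24, or 0.12 with the trend taken off. Wnt4, a ligand, had 2068 and 4138 counts, log2 1.16 (1.06 to 1.26), Wnt6 had 15 and 45, log2 1.61, and the repressor Tcf7l1 had 907 and 1393, log2 0.78.

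Of 23 TGF-beta and BMP pathway genes 4 were past the 1.5-fold rule upward and none downward, beside 3.75% and 1.61% of all kept genes. The median was 0.28. The ligand Tgfb2 had 507 and 838 counts, log2 0.88, and the co-receptor Tgfbr3 had 867 and 1319, log2 0.76. The activin subunit Inhba had 264 and 364 counts, log2 0.62, and the BMP target Id3 had 346 and 501, log2 0.69. Of 25 growth factor receptor and ligand genes 3 were past the rule upward and none downward, with a median of 0.38, or 0.29 with the trend taken off. The receptor Fgfr1 had 100 and 204 counts, log2 1.17 (0.73 to 1.66), Fgfr2 had 1464 and 2025, log2 0.63, and Erbb3 had 303 and 413, log2 0.60. Only 1 of these 3 was past the rule with the trend taken off. Of 25 semaphorin, plexin and ephrin genes 4 were past the rule upward and 1 downward. Besides Plxnd1 these were Sema3b (47 and 77 counts, log2 0.84), Sema5a (329 and 492, log2 0.74), Ntn4 (118 and 161, log2 0.60) and, downward, Sema3f (1637 and 968, log2 -0.60). Igfbp5 was the 1 of 4 IGF-binding protein genes past the rule.

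Genes induced by the ERK pathway, which FAK feeds, moved in both directions. Of 24 measured, 1 was past the 1.5-fold rule upward and 4 downward, beside 3.75% and 1.61% of all kept genes. The median was -0.09. Fos had 50 and 157 counts, log2 1.77 (1.21 to 2.45), while the related Fosb had 89 and 32, log2 -1.27 (-2.15 to -0.55). Egr1, another immediate-early gene, had 79 and 36 counts, log2 -0.94. The transcription factors Etv4 (2101 and 1207 counts, log2 -0.64, -0.78 to -0.51) and Etv5 (1103 and 547, log2 -0.85, -1.05 to -0.66) rest on far more reads. Under norepinephrine Etv4 stood at -0.58 and Etv5 at -0.49, so none of these 4 lower genes was past the rule there. Of 23 YAP/TAZ and TEAD genes, 1 was past it upward, Amotl1, a YAP-binding protein with 11811 and 17346 counts, log2 0.71, and none downward. The classical YAP targets Ctgf (18027 and 11763, log2 -0.46) and Cyr61 (10362 and 6596, log2 -0.49) were negative and short of the rule.

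Metabolic and growth genes differed by small amounts in many members. Of all 12060 kept genes, 5960 had a negative ratio, 2577 had an interval wholly below 0 and 2592 had one wholly above it. Of 24 cholesterol synthesis genes 23 had a negative ratio, the median was -0.35 (-0.36 with the trend taken off), 18 had an interval wholly below 0 and 2 were past the 1.5-fold rule downward, beside 1.61% of all kept genes. These were Mvk, mevalonate kinase, with 1977 and 1165 counts, log2 -0.60 (-0.74 to -0.47), and Fdps, with 118 and 68, log2 -0.62. Cyp51 (5620 and 3411 counts, log2 -0.56), Lss (2537 and 1529, log2 -0.57) and the regulator Srebf2 (8774 and 5740, log2 -0.45) were just short of it. Of 17 fatty acid synthesis genes 10 had a negative ratio, 8 had an interval wholly below 0 and 1 wholly above it, and none was past the rule in either direction. Fasn had 32304 and 25900 counts (log2 -0.16), and the list median was -0.04. Of 8 LXR targets, Abca1 and Pltp (309 and 453, log2 0.71) were past the rule upward and Arl4c (2453 and 1424, log2 -0.63) downward. Over all kept genes 3.75% were past the rule upward.

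Of 31 ribosome biogenesis and polyamine genes 30 had a negative ratio, with a median of -0.19. Of all 12060 kept genes 5960 had a negative ratio, and 3.75% passed the 1.5-fold rule upward and 1.61% downward. The 1 gene of this list past it downward was Npm3, a histone chaperone of the nucleolus, with 10598 and 5792 counts, log2 -0.71 (-0.77 to -0.65). The abundant nucleolar genes Npm1 (62976 and 45447 counts, log2 -0.31) and Ncl (57310 and 41818, log2 -0.30) had smaller ratios. Of 35 nuclear genes for respiratory chain subunits 34 had a negative ratio, with a median of -0.11 that was -0.03 with the trend taken off, and none was past the rule. None of 34 DNA replication genes (median -0.08) and none of 30 mitosis genes (median -0.06) was past the rule in either direction. Top2a had 20022 and 20531 counts, log2 0.19, and Rrm2 had 22969 and 17278, log2 -0.25.

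Some large ratios belonged to genes with near-identical copies elsewhere in the genome. A copy was another annotated gene with a transcript at least 95% identical over at least 100 bases and 50% of the shorter transcript, and 16.5% of the kept genes had one. Among the 54 genes lower by the 2-fold rule 42.6% had one, and among the 171 higher genes 12.3%. Gapdh, the glycolytic enzyme often used as a reference gene, had 9948 counts in shNC and 1328 in shFAK under vehicle, log2 -2.74 (-2.86 to -2.64), and 6186 and 7968 under norepinephrine, log2 0.52. Its pseudogene Gm13394 had 52012 and 38996 counts under vehicle, more than Gapdh itself. Summed over Gapdh and 95 copies the counts were 65009 and 42369, log2 -0.46. Gapdh was the 1 of 19 measured glycolysis genes past the 1.5-fold rule, which 1.61% of all kept genes passed downward. The list median was -0.08.

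The ribosomal protein gene Rpl30 had 1342 and 3198 counts, log2 1.41, and with 12 copies 16760 and 13307, log2 -0.17. The nucleosome-binding gene Hmgn2 had 340 and 835 counts, log2 1.45, and with 10 copies 4032 and 3495, log2 -0.05. Rpl30 thus changed sign once the copies were added, and the summed interval of Hmgn2 took in 0 (-0.13 to 0.04). Mitochondrially encoded mt-Nd4l, a subunit of complex I, had 258 and 104 counts, log2 -1.14, and with its 1 copy 353 and 244, log2 -0.37. How reads that fit several genes were counted is not given in the sources used here, and the single-gene values of these genes are uncertain. For Ptk2 the 1 copy had no counts in either library, and for Npm3 and Krt8 the sums with copies were at -0.72 and -1.39, close to the genes alone.

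Overlap with other annotated genes leaves further counts uncertain. Of the genes named, Slpi, Spp1, Loxl2, Gbp7, Igtp, Parp14, Tgfbr3, Fgfr2, Sned1, Fdps, Irf9, Malat1, Ncl, Pdgfra, Rpl30, Top2a, mt-Atp6 and mt-Nd4l overlap an annotated gene on their own strand. Itgav, Itga7, Lpp, Lims2, Thbs3, Adam8, Psmb8, Gbp2, Krt8, Ovol1, Twist2, Tgfb2, Tcf7l1, Fgfr1, Pltp, Npm3, Aldh1l2, Cdkn1a, Ctgf, Cyp51, Fn1, Gapdh, Loxl2, Lss, Malat1, Nfkb2, Pdgfra, Rora, Rpl30, Selenop, Sned1, Tef, Tln1, Uchl1 and Vcl overlap one on the other strand, as do those already noted, and an unstranded library cannot separate their reads.

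**Figure D5:**
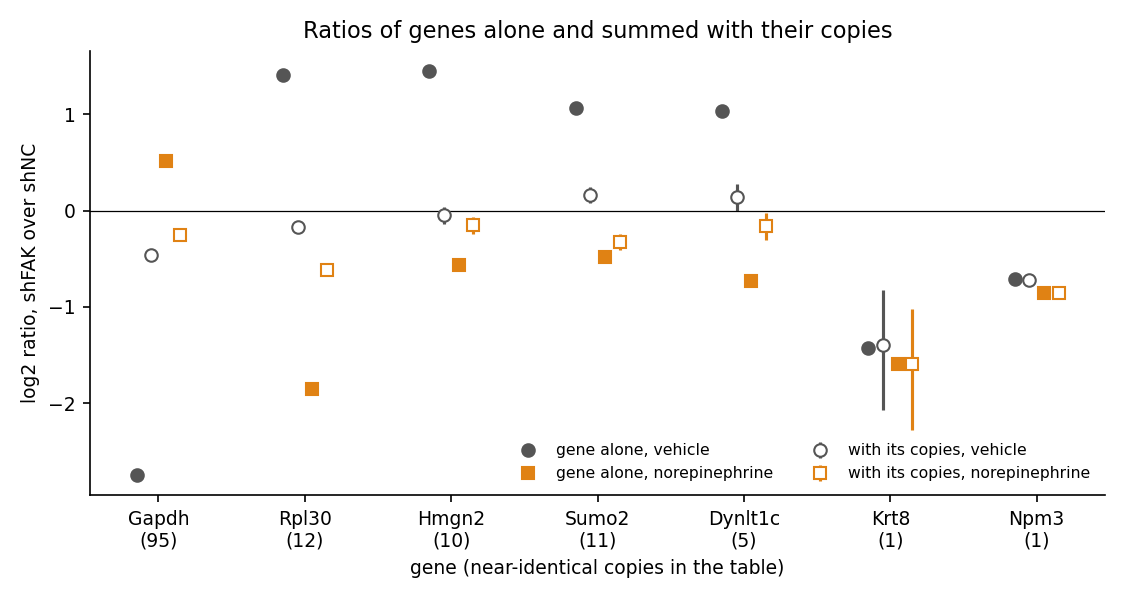
Log2 ratio of shFAK over shNC (vertical axis) for 7 genes alone (filled) and summed with their near-identical copies (open, with 99% counting intervals), under vehicle (grey circles) and norepinephrine (orange squares). The number of copies is in brackets. For Gapdh, Rpl30, Hmgn2, Sumo2 and Dynlt1c the summed ratios lie nearer to 0 than the gene under vehicle, and for Krt8 and Npm3 they match it.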

How the data were processed

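RNA of 4 Myc-CaP cultures was sequenced from libraries made with a kit that does not mark strand, per the labels' protocols. The authors deposited raw read counts per gene for 52636 genes. HISAT2 2.0.5, featureCounts 1.5.0-p3 and mm10 were used, per the submitters' processing notes. Not given in the sources used here were the annotation release, the strand setting and how multi-mapping reads were handled. Columns were matched to samples by title and 0 per-sample columns were left unused.

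TMM effective library sizes came from edgeR 4.0.16 (R 4.3.3) over the 4 libraries. Ratios and intervals were computed in Python 3.11.15 with scipy 1.17.1, with the filter of 1 CPM, the prior count of 2 and the 99% interval given in the report. Total counts of the norepinephrine libraries were 27598343 (shNC) and 23410486 (shFAK). With 1 library per group no test was run.

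The length and GC trend was taken off with natural splines (5 df per term, patsy 1.0.2). A GC value from GENCODE M21 was available for 99.9% of the kept genes. Of the identifiers found in that release, 95.2% had the same coordinates. Copies were found with minimap2 2.31. Promoter windows were also read for other motifs and in other gene sets. A sterol regulatory element (TCAC, any base, CCAC) was in 1 of 17 matched cholesterol synthesis genes (5.88%), beside 1.42% of matched kept genes.

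The genes described and the 44 gene lists were chosen with earlier results of these data known. Named genes were Ptk2, Ptk2b, up to 20 protein-coding genes per direction past the 2-fold rule that averaged at least 5 CPM, and up to 4 members per list and direction past the 1.5-fold rule, or the 2 most abundant members where none passed. Symbols of predicted genes were passed over unless a result turned on them. Some genes and lists are not reported here. The size rule was tested on simulated data. Alternatives were other library scalings (library totals, DESeq2 1.42.0 size factors, upper quartile, TMM over 2 libraries), other filters, prior counts of 0.5 and 10, a 95% interval, protein-coding genes alone, omission of mitochondrial or copied genes, and removal of trends. Summing counts with copies was added after the data were seen.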

Additional observations from a re-analysis of the deposited data

Results flagged for a closer look

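For 6 genes among those past the 2-fold rule under vehicle and averaging at least 5 CPM, the shFAK over shNC ratio lay on one side of 0 under vehicle and on the other under norepinephrine, with both intervals leaving out 0. Each group had 1 library, so the difference was not tested. The log2 ratio under vehicle minus that under norepinephrine was -3.26 for Gapdh, 3.26 for Rpl30, 2.02 for Hmgn2, 1.55 for Sumo2 and 1.76 for Dynlt1c. It was -1.70 for Gm10241, a Sumo2 pseudogene of 286 bases that the naming rule passes over. All 6 genes have near-identical copies. Sumo2 had 1522 and 2857 counts under vehicle while Gm10241 had 2103 and 827. Summed with copies, Sumo2 stood at 0.16 under vehicle and -0.33 under norepinephrine, and Dynlt1c at 0.14 and -0.16.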

How the results depend on the processing

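The number of genes at least 2-fold higher, 171, was 66 with a CPM of at least 5 in either library and 55 when the libraries averaged at least 5 CPM. The number at least 2-fold lower, 54, was 94 with no filter, 17 and 13 with those same CPM minima, 28 for protein-coding genes alone, 31 without genes that have copies, 35 after removal of the length trend and 34 after that of length and GC, and 35 with counts summed with copies. The number at least 1.5-fold higher, 452, was 279 and 246 at the CPM minima. The number at least 1.5-fold lower, 194, was 115 and 105 at the CPM minima, 112 for protein-coding genes alone, 104 without genes that have copies and 122 with copies summed. Fewer genes are tested under the filters and omissions, and the cause of the other shifts was not tested.

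The length correlation of 0.33 was 0.0948 with no filter, 0.40 at either CPM minimum and 0.28 without genes that have copies. With copies summed, Rpl30 went to -0.17, Hmgn2 to -0.047 and Gm10241 to 0.16. Among the alternatives for named genes, judged by the 2-fold rule alone, 3 reversed, 22 dropped below that rule, 13 came to pass it and 1718 did neither. Genes named by the 1.5-fold rule alone could lose it without being counted in this tally. Ptk2 in shFAK stayed between 39.9% and 42.0% of shNC under the alternatives run. The share of higher genes among those past the 2-fold rule, 76.0%, was 81.6% with library totals alone. Across the alternatives it ran from 72.1% with no filter to 84.0% after removal of the length and GC trend. List medians changed sign under at least 1 alternative for the FAK complex, epithelial junctions, fatty acid synthesis, glycolysis, p53, stress response, circadian, histone, nuclear RNA, leukocyte and neuroendocrine lists.

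No paired analysis was possible because each group had 1 library. In the bin of lowest mean CPM (0.601 to 5.84), the median half-width of the interval was 0.72 on the log2 scale, and at 24 and 31 counts Postn had an interval of -0.53 to 1.61, so differences within such widths were not detectable at this depth.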

Other observations

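The lists in this section are set beside the 3.75% of all kept genes past the 1.5-fold rule upward and 1.61% downward. Of 23 integrated stress response genes 2 were past it upward, Aldh1l2 (61 counts in shNC and 119 in shFAK, log2 interval 0.53 to 1.74), a mitochondrial folate enzyme, and Slc7a11 (503 and 789, log2 0.81), the cystine transporter. Of 26 NRF2 targets and redox enzymes 2 were past it upward, Slc7a11 and the selenium carrier Selenop (849 and 1328, log2 0.80), and Selenom downward. Of 22 p53 targets Cdkn1a, a cell cycle inhibitor, was past it upward with 520 and 769 counts, log2 0.72 (0.51 to 0.94), and its ratio under norepinephrine was 0.38. None of 27 unfolded protein response and chaperone genes and none of 16 hypoxia-response genes was past the rule, and the medians were -0.09 and 0.04.

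Of 16 circadian clock genes, Rora (94 and 144 counts, log2 0.76) was past the rule upward, and the clock output factors Tef (875 and 442, log2 -0.82) and Ciart (412 and 211, log2 -0.80) downward. Both lower genes also passed it under norepinephrine, at -0.81 and -0.72. Of 4 neuroendocrine markers measured, Cck and the neuropeptide gene Npy (66 and 115, log2 0.94) were past the rule upward, while Uchl1 had 20330 and 18146 counts, log2 -0.01. Of 14 markers on that list, 5 were at 0 in both vehicle libraries.

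Of 15 mitochondrially encoded genes, mt-Atp6 was past the rule upward with 601 and 1288 counts, log2 1.26, and at 0.69 when summed with its copy, and mt-Nd4l downward. The nuclear-retained RNA Malat1 had 19461 and 26700 counts, log2 0.61 (0.58 to 0.65), and was the 1 of 4 such RNAs past the rule. After removal of the length and GC trend it was at 0.54, and that list's median went from 0.28 to 0.00. Of 4 measured replication-dependent histone genes, Hist1h2bc was past the rule downward with 92 and 52 counts, log2 -0.65, and at -0.44 when summed with its copies.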
